A study of Mus musculus with 24 samples.

Results

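The genes described here are 9 genes of Wnt signaling, the receptors Lgr5 and Lgr6 and the target genes Axin2, Lef1, Nkd1, Sp5, Rnf43, Znrf3 and Wif1, in cultured mouse organs of Corti (OCs). They were taken as the rows of the count table whose Entrez identifier maps to these symbols, which gave 9 of the 24454 genes in the table, and all 9 had enough counts to be tested. OCs from P5 mice (strain C57BL/6N, both sexes) were kept in culture for 24 h and then for another 6 or 24 h in 1 of 4 treatments. CTRL explants received no drug, GM explants received gentamicin at 50 μM, an antibiotic that damages hair cells (HCs), PIO explants received pioglitazone at 10 μM, which activates PPAR-γ, a nuclear receptor, and PIO + GM explants received the 2 drugs at these doses. There were 3 libraries in each of the 8 combinations of treatment and time, every one made from 6 pooled OCs. All groups, CTRL included, were thus explants of the same strain and age that had spent a day in medium with serum and penicillin before treatment. A library averages over every cell type of the explant, so that fewer cells of a type and less RNA per cell cannot be told apart. The labels number the libraries but do not say whether the OCs of different libraries came from separate litters, and p-values measure the spread between these libraries only.

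In canonical Wnt signaling, Wnt ligands bind Frizzled receptors and the co-receptors LRP5 and LRP6, the destruction complex stops degrading β-catenin, and β-catenin then drives transcription together with proteins of the TCF and LEF family. Several of the genes that respond belong to the pathway itself: Axin2 is a scaffold of the destruction complex, Nkd1 binds Dishevelled, and Rnf43 and Znrf3 are membrane ubiquitin ligases that remove Frizzled receptors from the cell surface, so that each dampens the signal. Lgr5 and Lgr6 are receptors for R-spondins, ligands that relieve Frizzled receptors from Rnf43 and Znrf3, and in the neonatal cochlea they mark subsets of supporting cells with a capacity to form new HCs. Lef1 and Sp5 are transcription factors, and Wif1 is a secreted protein that binds Wnt ligands.

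The bases just before an annotated start of transcription are shown for 4 of the genes, Axin2, Lef1 and Lgr6 because they had the lowest p-values of the 9 with pioglitazone at 6 h, and Sp5 because it was the only gene with a match to the motifs searched. The sequences are from RefSeq on build GRCm38.p6 and cover the 250 bases before 1 start of each gene, the one farthest upstream of those in the table of starts used, read 5′ to 3′ on the strand of the gene. For Axin2 and Nkd1 the annotated gene begins farther upstream, so that their windows lie inside the gene, and the window of Lgr6 overlaps the gene's end on the chromosome, so other starts of these 3 genes were not searched. They lie at chr2:70474673-70474922 for Sp5, chr11:108920099-108920348 for Axin2 and chr3:131110047-131110296 for Lef1, all on the plus strand, and at chr1:135105277-135105526 on the minus strand for Lgr6. Capitals mark matches on either strand to CTTTGA or CTTTGT, letters at the core of sites bound by TCF and LEF proteins, or to AGGTCA, the core of sites of many nuclear receptors.
Sp5: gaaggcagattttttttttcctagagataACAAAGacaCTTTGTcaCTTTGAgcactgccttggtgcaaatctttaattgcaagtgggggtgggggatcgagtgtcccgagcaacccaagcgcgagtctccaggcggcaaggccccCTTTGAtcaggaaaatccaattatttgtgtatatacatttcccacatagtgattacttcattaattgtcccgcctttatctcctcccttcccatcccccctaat
Axin2: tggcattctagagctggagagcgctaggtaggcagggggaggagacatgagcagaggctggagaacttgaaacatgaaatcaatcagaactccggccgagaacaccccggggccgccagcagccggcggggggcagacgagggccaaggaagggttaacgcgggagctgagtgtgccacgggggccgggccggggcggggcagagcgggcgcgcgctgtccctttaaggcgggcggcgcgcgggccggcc
Lef1: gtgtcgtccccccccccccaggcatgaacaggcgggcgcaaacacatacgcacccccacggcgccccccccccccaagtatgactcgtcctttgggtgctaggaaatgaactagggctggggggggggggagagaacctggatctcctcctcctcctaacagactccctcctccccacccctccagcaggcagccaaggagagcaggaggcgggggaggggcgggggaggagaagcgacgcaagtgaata
Lgr6: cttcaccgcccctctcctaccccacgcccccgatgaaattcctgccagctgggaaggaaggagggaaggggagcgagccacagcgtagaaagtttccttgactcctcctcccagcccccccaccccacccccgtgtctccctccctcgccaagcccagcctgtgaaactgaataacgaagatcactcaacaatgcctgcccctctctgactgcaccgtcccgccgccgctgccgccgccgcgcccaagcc
The window of Sp5 held 2 matches to CTTTGA and 2 to CTTTGT, which began 221, 212, 204 and 104 bases before the start and did not overlap. The reference held a window for 7 of the 9 genes, and no other window, those of Nkd1, Rnf43 and Wif1 included, had a match to any of the 3 motifs. Of all 32817 windows of the same length in the reference, 13.8% held CTTTGA, 16.5% held CTTTGT, 27.6% held either and 14% held AGGTCA. A match describes the letters of this window only.

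In build GRCm38.p6 the genes lie at chr10:115450314-115587780 (Lgr5), chr1:134983300-135105374 (Lgr6), chr11:108917828-108950783 (Axin2), chr8:88521342-88594887 (Nkd1), chr11:87663087-87735539 (Rnf43), chr11:5276329-5444847 (Znrf3), chr3:131110297-131224357 (Lef1), chr2:70474923-70477726 (Sp5) and chr10:121034004-121100642 (Wif1), and reads were counted over their exons. Per length, Axin2 had the highest level of the 9 genes, with 19.1 ± 5.67 RPKM (reads per kilobase of exon, scaled to a common library size, mean ± SD of the 24 libraries). Wif1 followed with 18.4 ± 7.16 RPKM, Nkd1 with 18.4 ± 5.29, Lef1 with 12.7 ± 4.12 and Rnf43 with 11.8 ± 3.87. Znrf3 lay at 7.48 ± 0.64 RPKM and Lgr5 at 6.95 ± 1.96. Lgr6 was lower still at 3.24 ± 1.86 RPKM, and Sp5 had the lowest level, 0.69 ± 0.28. The ranges over libraries overlapped between each gene and the next in this order, so only distant positions are separated by more than the spread. Relative to its lowest value, Lgr6 had the widest range of the 9 genes, from 0.81 to 7.21 RPKM, and Znrf3 the narrowest, from 6.29 to 8.84. The levels of Sp5 rest on 7 to 39 counts per library, and all other genes had at least 36 counts in each library.

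**Figure D1:**
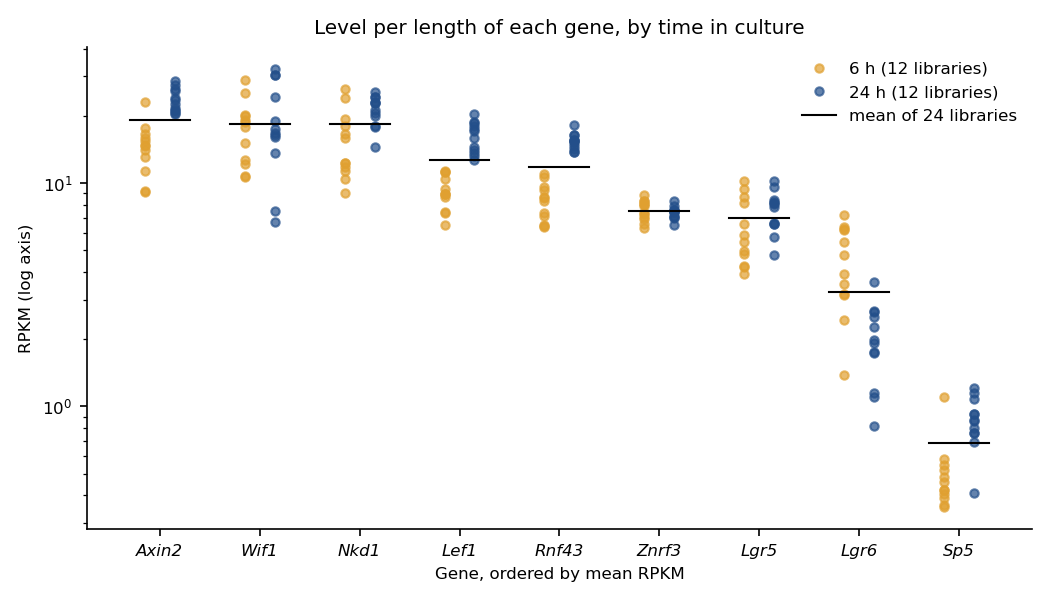
Level of each gene in RPKM on a log axis, with 1 point per library (12 at 6 h in orange, 12 at 24 h in blue) and a line at the mean of all 24. Lef1 and Rnf43 are separated completely by time, Lgr6 is mostly lower at 24 h, and Znrf3 stays between 6.29 and 8.84.

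Library totals ranged from 7211357 to 15548856 counts on genes (median 12538495), and 3 counts corresponded to 0.193 to 0.416 CPM (counts scaled to a common library size, not divided by gene length), which covers counting error only. Markers of the OC were present in every library: the summed level of 12 HC markers was 510 to 1070 CPM and that of 11 supporting cell markers was 1725 to 5826 CPM. Markers of other cells were present too, with sums of 1555 to 4869 CPM for 7 mesenchyme genes, 334 to 2601 for 6 Schwann cell genes, 30.4 to 371 for 6 neuronal genes, 37.4 to 154 for 7 macrophage genes, 93.3 to 306 for 5 endothelial genes and 9.76 to 239.7 for 5 genes of stria and melanocytes. Only the melanocyte gene Mlana was at 0 counts in any library. Single genes made up much of the larger sums. The mean over the 24 libraries was 418 CPM for Myo6, beside 758 for the HC sum. It was 1917 for Tecta beside 3274 for the supporting cell sum, and 1413 for Col1a2 beside 2882 for the mesenchyme sum. Some HC markers were near the floor, with a lowest count of 3 for Ocm and 4 for Atoh1.

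The time comparison asks how the 9 genes differed between 24 h and 6 h of treatment. Averaged over the 4 treatments, Axin2, Lef1, Nkd1, Sp5 and Rnf43 rose from 6 to 24 h and Lgr6 fell, whereas Lgr5, Znrf3 and Wif1 did not pass the test. The 6 of 9 genes with an adjusted p-value under 0.05 (66.7%) stand beside 62.6% of all 16317 genes tested, so the share is near the background, and 5 rose and 1 fell where all genes divided into 31.9% higher and 30.7% lower. The median log2 fold change of the 9 genes was 0.45, against 0.02 for all genes.

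Among the receptors, Lgr6 had 5.00 to 26.1 CPM at 6 h (median 15.7) and 2.94 to 13.1 CPM at 24 h (median 7.07). The ranges overlapped between 5.00 and 13.1 CPM, and the 24 h libraries were lower (log2 fold change -1.12 with an SE of 0.17, adjusted p = 1.39e-05, from the quasi-likelihood test of edgeR with Benjamini-Hochberg adjustment, as for all tests here). Lgr5 had 18.5 to 48.0 CPM at 6 h (median 26.6) and 22.5 to 48.1 CPM at 24 h (median 37.3). The 2 ranges of Lgr5 nearly coincided, and its log2 fold change of 0.23 did not pass the test (SE 0.16, 95% interval -0.09 to 0.56, adjusted p = 0.202), although it did without PIO replicate 2 of 6 h (0.36, adjusted p = 0.0247). Of the 2 receptor genes, then, one fell and the other lay within the spread of the libraries.

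Of the 4 genes that dampen the pathway, Axin2 had 38.8 to 98.4 CPM at 6 h (median 62.7) and 86.7 to 122 CPM at 24 h (median 98.2). Its log2 fold change was 0.71 (SE 0.09, adjusted p = 1.83e-06), and the ranges met only through 1 CTRL library at 6 h with 98.4 CPM. Rnf43 had 27.3 to 47.4 CPM at 6 h (median 36.4) and 59.2 to 78.4 CPM at 24 h (median 66.4). All 12 libraries at 24 h were above all 12 at 6 h, with a log2 fold change of 0.89 (SE 0.09, adjusted p = 6.71e-08). Znrf3, the paralog of Rnf43 with the same function, had 48.2 to 67.7 CPM at 6 h (median 58.4) and 49.4 to 63.5 CPM at 24 h (median 56.9). Znrf3's log2 fold change of -0.04 (SE 0.06) had a 95% interval of -0.16 to 0.09, which leaves out a change of the size seen for Rnf43. Nkd1 varied most widely of the 4 at 6 h, with 40.1 to 117 CPM (median 62.9) against 64.3 to 114 CPM at 24 h (median 98.5). The ranges of Nkd1 overlapped over most of their length and the log2 fold change of 0.45 (SE 0.16) passed the test with an adjusted p of 0.0180. It was the weakest of the 6 calls, and it was lost after removal of a trend with GC content, a setting chosen after the data were seen (0.34, adjusted p = 0.0553).

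Of the transcription factor genes, Lef1 had 23.9 to 41.5 CPM at 6 h (median 33.0) and 46.7 to 74.9 CPM at 24 h (median 60.7). The ranges were separate, and the log2 fold change was 0.81 (SE 0.08, adjusted p = 4.84e-08). In the annotation 13.7% of the exon bases of Lef1 are shared with the antisense gene Gm43352, and 3.8% of those of Axin2 with the antisense gene Gm11670, and the sources do not say whether counting used the strand. Sp5 had 0.741 to 2.32 CPM at 6 h (median 0.925) and 0.858 to 2.54 CPM at 24 h (median 1.81). Its ranges overlapped through 1 high CTRL library at 6 h and 1 low PIO library at 24 h, and the log2 fold change was 0.81 (SE 0.19, adjusted p = 0.000915). The secreted inhibitor Wif1 had 23.9 to 64.5 CPM at 6 h and 15.0 to 72.7 CPM at 24 h, and its log2 fold change of 0.08 (SE 0.21, 95% interval -0.35 to 0.52, adjusted p = 0.735) lay within the spread.

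**Figure D2:**
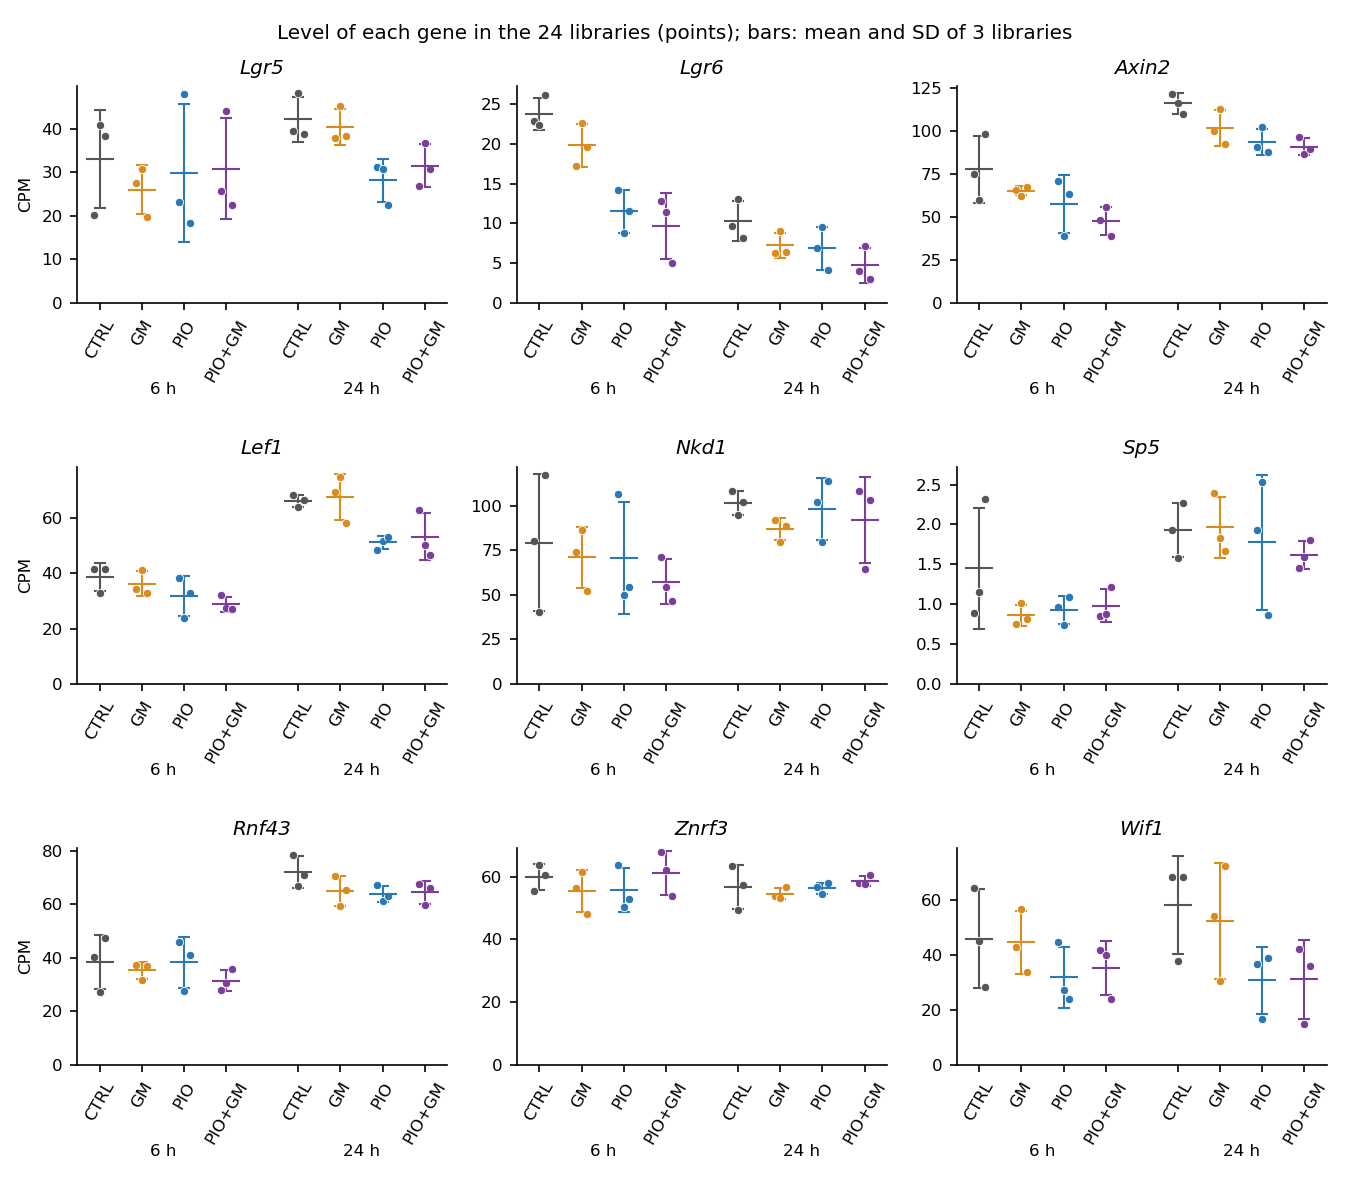
CPM of the 9 genes in all 24 libraries, 1 panel per gene, with points for libraries and bars for the mean and SD of the 3 libraries of each treatment at 6 and 24 h. Rnf43 and Lef1 are higher at 24 h in each treatment, and the 6 libraries of Lgr6 with PIO at 6 h (5.00 to 14.2) lie under the 6 without it (17.2 to 26.1).

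Markers of other cells changed over the same interval, in which 62.6% of all genes tested passed, 31.9% higher and 30.7% lower. The counts for each list are to be read beside these shares. With time, 4 of 6 Schwann cell genes and 5 of 6 neuronal genes fell, and their summed levels went from 362 to 2601 CPM at 6 h to 334 to 847 CPM at 24 h and from 57.0 to 371 CPM to 30.4 to 206 CPM. Of the supporting cell markers, 6 of 11 rose (summed level 1725 to 5826 CPM at 6 h and 2969.5 to 4802 CPM at 24 h), as did 3 of 7 mesenchyme, 5 of 7 macrophage and 6 of 9 proliferation genes. Of the HC markers, 4 of 12 rose and 3 fell, and 1 proliferation gene and 1 of 5 endothelial genes fell, whereas 0 of the 4 stria and melanocyte genes tested changed by edgeR. The part of these cells in the changes of the 9 genes was not tested.

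Within single treatments, Axin2, Lef1 and Rnf43 rose in each of the 4. In CTRL, 4 of 9 genes changed (28% of all genes did), with log2 fold changes of -1.20 (SE 0.34) for Lgr6, 0.58 (SE 0.18) for Axin2, 0.78 (SE 0.16) for Lef1 and 0.91 (SE 0.18) for Rnf43. In GM, 5 of 9 changed (24.2% of all genes), with -1.45 (SE 0.34) for Lgr6, 0.64 (SE 0.18) for Axin2, 0.90 (SE 0.16) for Lef1, 0.88 (SE 0.18) for Rnf43 and 1.18 (SE 0.37) for Sp5. In PIO, 3 of 9 changed (29% of all genes), with 0.70 (SE 0.18) for Axin2, 0.69 (SE 0.16) for Lef1 and 0.74 (SE 0.18) for Rnf43. In PIO the value for Lgr6 was -0.74 (SE 0.34) and did not pass (adjusted p = 0.105), although it passed after removal of the GC trend (-0.87, adjusted p = 0.0383). In PIO + GM, 4 of 9 changed (34.6% of all genes), with -1.06 (SE 0.35) for Lgr6, 0.93 (SE 0.19) for Axin2, 0.89 (SE 0.16) for Lef1 and 1.03 (SE 0.18) for Rnf43. The difference in time effect between the treatments was tested directly and passed for 0 of 9 genes, with 0 at an unadjusted p under 0.05 and 0 by DESeq2, and for 0 of all genes by edgeR and 25 by DESeq2.

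The Lef1 and Rnf43 calls in each treatment held when any single library was left out, but others did not. Axin2 lost its call in CTRL without CTRL replicate 1 or 2 of either time point (adjusted p up to 0.149), in GM without replicate 2 of either time point (0.0653) and in PIO without replicate 2 of 6 h (0.0510). Lgr6 lost it in CTRL without replicate 3 of 24 h (0.0581) and in PIO + GM without replicate 1 or 2 of 6 h or 1 or 3 of 24 h (up to 0.111). Sp5 in GM lost it without any of the 3 libraries at 6 h or without replicate 1 of 24 h (up to 0.0962), and also after removal of the GC trend (0.0576). In PIO, Sp5 passed without CTRL replicate 3 of 6 h (0.0449) or PIO replicate 3 of 24 h (0.0164).

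The comparison of pioglitazone with no pioglitazone, averaged over gentamicin, sets 6 libraries against 6 at each time point. At 6 h, Lgr6 and Axin2 fell and the other 7 genes did not pass the test by edgeR. DESeq2 called 3 of the 9, with Lef1 added (adjusted p = 0.0456), beside 3435 of all genes, against 2625 by edgeR. Lgr6 had 22.9, 22.4 and 26.1 CPM in CTRL and 17.2, 22.6 and 19.7 CPM in GM, against 14.2, 8.79 and 11.6 CPM in PIO and 12.8, 11.4 and 5.00 CPM in PIO + GM. The 6 libraries with pioglitazone were all below the 6 without it, and Lgr6 fell (log2 fold change -1.03, SE 0.24, adjusted p = 0.00976). The lowest value, 5.00 CPM, came from the library with the smallest total, PIO + GM replicate 3, and rests on 37 counts. Over all single libraries left out, the log2 fold change of Lgr6 lay between -1.15 and -0.88 and its adjusted p was at most 0.0272.

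Axin2 had 75.1, 59.5 and 98.4 CPM in CTRL and 65.7, 62.2 and 67.4 CPM in GM, against 70.5, 38.8 and 63.2 CPM in PIO and 48.4, 55.5 and 39.0 CPM in PIO + GM. The PIO + GM libraries were below all libraries without pioglitazone, while 2 of the 3 PIO libraries were within their range. The log2 fold change of Axin2 was -0.44 (SE 0.13, adjusted p = 0.0293). This call was lost without CTRL replicate 1 or 3, GM replicate 1 or 3, PIO replicate 2 or PIO + GM replicate 3 (adjusted p up to 0.0842), in a fit of the 12 libraries at 6 h alone (log2 fold change -0.46, adjusted p = 0.142) and after removal of the GC trend (-0.24, adjusted p = 0.147). Lef1 was at -0.31 (SE 0.11, adjusted p = 0.0661), with 32.9 to 41.5 CPM without and 23.9 to 38.3 CPM with pioglitazone, and it passed without CTRL replicate 2, PIO replicate 1 or PIO + GM replicate 1 (adjusted p from 0.0315 to 0.0439). The other log2 fold changes were -0.43 for Wif1, -0.24 for Nkd1, -0.23 for Sp5, -0.08 for Rnf43, 0.02 for Znrf3 and 0.05 for Lgr5, with adjusted p-values of at least 0.314.

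The 2 of 9 genes changed by pioglitazone at 6 h (22.2%) stand beside 16.1% of all genes, with 9.25% higher and 6.83% lower. In the fit of the 12 libraries at 6 h alone, 1 of 9 genes (Lgr6) and 143 of all 15769 tested passed, in place of 2625 of 16317. The median of the 9 log2 fold changes was -0.24 and that of all genes -0.02. At the same time point, 4 of 12 HC markers (Gfi1, Myo7a, Pou4f3 and Slc17a8), 1 of 7 mesenchyme, 1 of 6 Schwann cell and 1 of 5 endothelial genes were lower, 1 of 9 proliferation genes was higher, and 0 of 11 supporting cell, 0 of 6 neuronal, 0 of 7 macrophage and 0 of 4 stria and melanocyte genes passed the test by edgeR. Summed levels overlapped between libraries without and with pioglitazone, at 546 to 884 and 510 to 809 CPM for HC markers, 1874 to 5826 and 1725 to 3024 CPM for supporting cell markers, 1884 to 4644 and 1555 to 4104 CPM for mesenchyme and 765 to 2601 and 362 to 2440 CPM for Schwann cell genes. Their part in the change of Lgr6 and Axin2 was not tested.

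**Figure D3:**
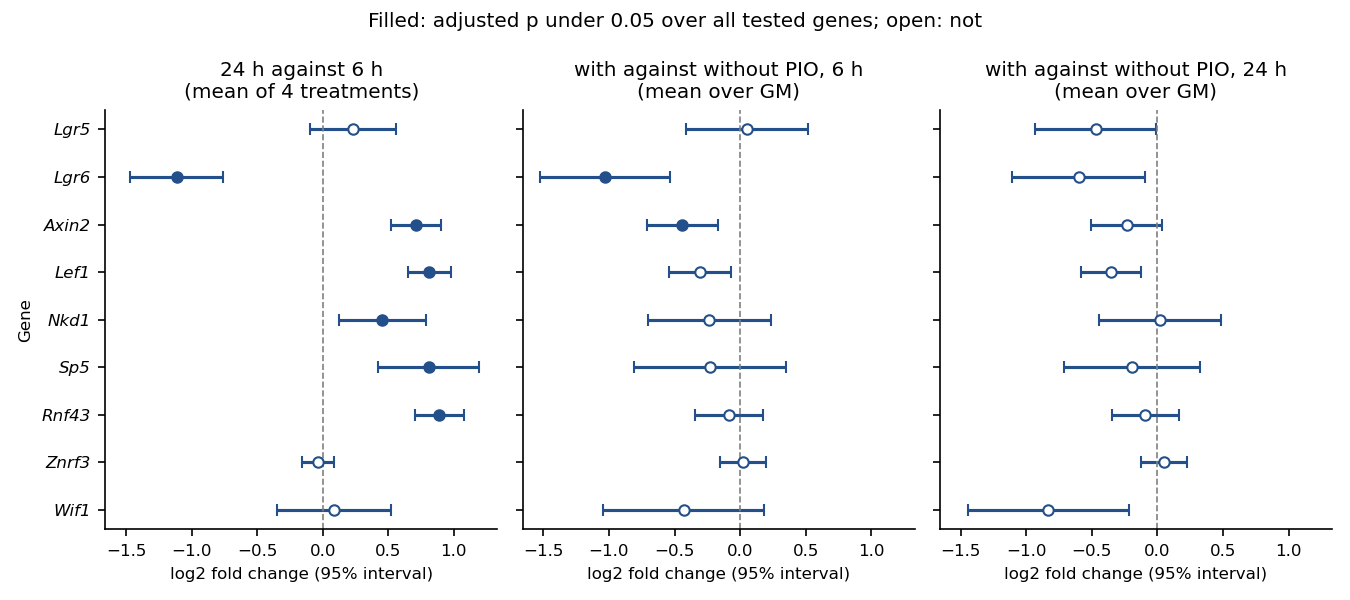
Log2 fold change of each gene with its 95% interval for time (left), for pioglitazone at 6 h (middle) and for pioglitazone at 24 h (right), with filled points where the adjusted p over all genes was under 0.05. Lgr6 is to the left of 0 in all 3 panels (-1.12, -1.03 and -0.60), and the panels share libraries.

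At 24 h, pioglitazone changed 0 of 9 genes by edgeR, against 2.79% of all genes, although 4 of the 9 (Wif1, Lef1, Lgr6 and Lgr5) had an unadjusted p under 0.05, as did 2750 of all 16317 genes. DESeq2 called 1 of the 9, Lef1, beside 970 of all genes. Wif1 had 68.5, 37.7 and 68.5 CPM in CTRL and 54.2, 30.6 and 72.7 CPM in GM, against 36.9, 16.9 and 39.0 CPM in PIO and 42.3, 15.0 and 36.1 CPM in PIO + GM. In each of the 4 groups replicate 2 was the lowest, and the ranges with and without pioglitazone overlapped. The log2 fold change of Wif1 was -0.83 (SE 0.29, 95% interval -1.45 to -0.22, adjusted p = 0.139). Wif1 passed in an alternative fit that included the replicate number, given in the section on processing below.

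Lgr5 had 39.4, 48.1 and 38.8 CPM in CTRL and 37.9, 45.1 and 38.2 CPM in GM at 24 h, against 31.1, 30.8 and 22.5 CPM in PIO and 26.9, 36.7 and 30.8 CPM in PIO + GM. All 6 libraries with pioglitazone were below all 6 without it, and yet the log2 fold change of -0.47 did not pass the test (SE 0.22, adjusted p = 0.282). With the 12 libraries at 24 h fitted alone, 3 of 9 genes passed, among them Lgr5 (adjusted p = 0.0263) and Lef1 (0.0244), and the number over all genes was 1373 in place of 456.

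Lef1 had 68.3, 64.0 and 66.4 CPM in CTRL and 69.3, 74.9 and 58.4 CPM in GM at 24 h, against 48.5, 51.9 and 53.2 CPM in PIO and 63.0, 50.2 and 46.7 CPM in PIO + GM. A single PIO + GM library, with 63.0 CPM, reached the range of those without pioglitazone. The log2 fold change of Lef1 was -0.36 (SE 0.11, adjusted p = 0.0846), and it passed without PIO replicate 2 of 6 h (0.0385). Lgr6 had 9.67, 13.1 and 8.21 CPM in CTRL, 6.28, 9.05 and 6.34 CPM in GM, 6.94, 9.56 and 4.15 CPM in PIO and 3.97, 7.20 and 2.94 CPM in PIO + GM. Its groups overlapped, with a log2 fold change of -0.60 (SE 0.24, adjusted p = 0.202).

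Whether the effect of pioglitazone differed between 24 and 6 h was tested directly and passed for 0 of 9 genes by edgeR and by DESeq2, with 0 at an unadjusted p under 0.05, where 1 of all 16317 genes passed by edgeR and 46 by DESeq2. The differences in log2 fold change were 0.43 for Lgr6 (SE 0.34, 95% interval -0.28 to 1.13), 0.20 for Axin2 (SE 0.18), -0.05 for Lef1 (SE 0.16), -0.52 for Lgr5 (SE 0.31, adjusted p = 0.492) and -0.40 for Wif1 (SE 0.41). The call of Lgr6 at 6 h and the lack of one at 24 h are thus not shown to be different effects.

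Taken one pair of groups at a time, with 3 libraries against 3, pioglitazone changed 0 of 9 genes in each of the 4 comparisons by edgeR. For PIO against CTRL at 6 h, 2 genes had an unadjusted p under 0.05 (2479 of all genes did), and edgeR called 0.337% of all genes. By DESeq2, 0 of the 9 genes passed, beside 383 of all genes. Lgr6 was lowest there, at -1.04 (SE 0.33, adjusted p = 0.157), and all 3 PIO libraries were below all 3 CTRL libraries. For PIO + GM against GM at 6 h (1.32% of all genes) the figure was -1.01 for Lgr6 (SE 0.34, adjusted p = 0.0945), again without overlap. This comparison shares no library with the former, and 2 of the 9 genes had an unadjusted p under 0.05 (4087 of all genes did). DESeq2 called 1 of the 9, beside 1330 of all genes. That gene was Lgr6, which edgeR also called without PIO + GM replicate 1 (0.0275). At 24 h, 0.153% of all genes changed in PIO against CTRL and 0.11% in PIO + GM against GM. At an unadjusted p under 0.05, there were 2 of the 9 genes in the former (Wif1 at -0.91 and Lef1 at -0.37), beside 1621 of all genes, and 1 in the latter (Lef1 at -0.34), beside 1219. DESeq2 called 0 of the 9 in each, beside 162 of all genes in the former and 112 in the latter. The effect of pioglitazone with and without gentamicin was compared as an interaction, which passed for 0 of 9 genes at 6 h and 0 at 24 h by edgeR and by DESeq2, with 0 at an unadjusted p under 0.05, as it did for 0 of all 16317 genes by both tools.

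Gentamicin changed 0 of 9 genes in any comparison by edgeR or by DESeq2. The background by edgeR was as low, with 0% of all genes for GM against CTRL at 6 h and 0.0123% at 24 h, 0% for PIO + GM against PIO at 6 h and 0.0735% at 24 h, and, averaged over pioglitazone, 0.0123% at 6 h and 0.313% at 24 h. DESeq2 called between 0 and 97 of all genes in these comparisons. Of the 9 genes, 1 had an unadjusted p under 0.05 in the averaged comparison at 24 h, as did 461 of all genes, and 0 had one in each of the other 5 comparisons. That gene was Lgr6, with 4.15 to 13.1 CPM without and 2.94 to 9.05 CPM with gentamicin at 24 h (medians 8.89 and 6.31). The ranges overlapped, and the log2 fold change was -0.53 (SE 0.24, 95% interval -1.04 to -0.02, adjusted p = 1.00). At 6 h Lgr6 was at -0.25 (SE 0.24), Axin2 at -0.26 (SE 0.13) and Lgr5 at -0.15 (SE 0.22). These intervals allow changes of some size, since that of Lgr5 at 6 h ran from -0.61 to 0.32.

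The rest of the pathway was described with 95 genes in 6 lists, of which 80 had enough counts to be tested. From 6 to 24 h, 33 rose and 16 fell (61.3%, against 62.6% of all genes), with a median log2 fold change of 0.13 against 0.02 for all genes. By role, 5 of 16 ligands rose and 3 fell, 6 of 18 receptor and secretion genes rose and 5 fell, 7 of 11 inhibitors outside the cell or at its surface rose and 2 fell, 6 of 16 cytoplasmic genes rose and 1 fell, 7 of 11 nuclear genes rose and 1 fell, and 2 of 8 other target genes rose and 4 fell. The rising genes with the lowest p-values were Apcdd1, a membrane-bound inhibitor (1.86, SE 0.15), Btrc, which marks β-catenin for degradation (0.55, SE 0.05), Porcn, which acylates Wnt ligands for secretion (1.05, SE 0.10), and the co-repressor gene Tle2 (2.09, SE 0.19). Apcdd1 had 17.7 to 43.8 CPM at 6 h and 70.7 to 149.95 CPM at 24 h, without overlap, and Tle2 had 4.45 to 25.4 and 37.0 to 79.7 CPM, again without overlap. The falling genes were Myc (-1.77, SE 0.19), Cd44 (-1.47, SE 0.17), the inhibitor gene Frzb (-0.91, SE 0.13) and the ligand gene Wnt2b (-1.28, SE 0.19). Myc and Cd44, which are counted among Wnt targets in other tissues, thus moved opposite to Axin2, Lef1 and Rnf43. Myc had 11.3 to 52.0 CPM at 6 h and 5.07 to 14.3 CPM at 24 h.

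With pioglitazone at 6 h, 5 of the 80 genes rose and 7 fell (15%, against 16.1% of all genes), with a median of -0.17 against -0.02. The cell cycle gene Ccnd1 fell most clearly, from 110.3 to 147 CPM without pioglitazone to 40.0 to 74.2 CPM with it (-1.20, SE 0.22, adjusted p = 0.00277 by edgeR), and the ranges were separate. Also lower were the receptor gene Fzd8 (-0.55, SE 0.13), the secreted inhibitor gene Sfrp2 (-0.69, SE 0.17) and Tcf7 (-0.69, SE 0.18), which encodes a partner of β-catenin related to Lef1. Tcf7 had 19.6 to 31.0 CPM without and 10.9 to 19.2 CPM with pioglitazone, without overlap. Higher were Cby1, an antagonist of β-catenin (0.41, SE 0.11), Amer1 (0.22, SE 0.06), the receptor gene Fzd3 (0.45, SE 0.14) and the co-receptor gene Lrp6 (0.22, SE 0.07). At 24 h, 1 of the 80 genes passed (1.25%, against 2.79% of all genes), again Ccnd1, with 47.6 to 107 CPM without and 25.8 to 45.2 CPM with pioglitazone (-0.86, SE 0.22, adjusted p = 0.0381).

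**Figure D4:**
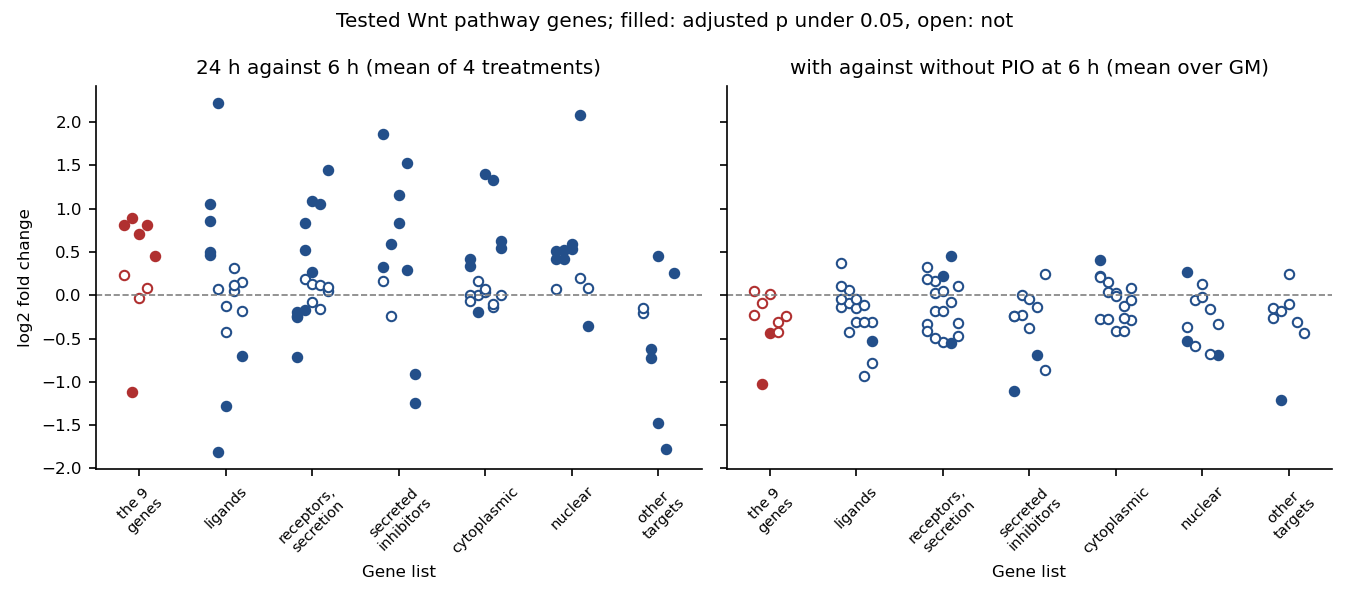
Log2 fold change of the 9 genes (red) and of the tested genes of 6 Wnt pathway lists (blue; the list of secreted inhibitors also holds membrane-bound ones) from 6 to 24 h (left) and with pioglitazone at 6 h (right), with filled points where the adjusted p was under 0.05. Genes move both ways with time in each list, with 33 of 80 higher and 16 lower, and 7 of 80 are lower and 5 higher with pioglitazone.

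Correlation between the 9 genes differed from pair to pair. After removal of the mean of each time point, the 4 highest values of Pearson's r of log2 CPM over the 24 libraries were 0.79 between Axin2 and Lef1, 0.76 between Axin2 and Lgr6, 0.66 between Axin2 and Rnf43, and 0.65 between Lgr6 and Lef1. After removal of the mean of each of the 8 groups, which also takes out the drug effects, the values in the same order were 0.70, 0.50, 0.67 and 0.34. Within time points the next highest were Nkd1 and Rnf43 at 0.64 and Axin2 and Nkd1 at 0.57, while Lgr6 and Rnf43 were at 0.17, Wif1 and Rnf43 at 0.19 and Wif1 and Sp5 at -0.12. Without that removal, r was 0.93 for Axin2 and Lef1 but -0.18 for Axin2 and Lgr6, whose levels changed in opposite directions with time. Lgr5 had r between -0.37 and 0.29 with the other 8 genes within time points, and Znrf3 between -0.04 and 0.37. The points share libraries, depth and cell composition, and these values are descriptions.

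Over all 24 libraries and the tested genes with a mean of at least 5 CPM, the genes with the pattern most like each of the 8 genes other than Lgr5 were Igfbp3 and Trib1 for Lgr6 (r = 0.93 and 0.91), Bmp7 and Rgma for Axin2 (0.97 and 0.94), and Gng7 and Car11 for Lef1 (0.96 and 0.94). They were Otog and Pgap6 for Nkd1 (0.92 and 0.89), Bmper and Lmntd1 for Sp5 (0.84 and 0.83), Rab3d and Rec8 for Rnf43 (0.98 and 0.97), Lrrc8b and Nt5dc3 for Znrf3 (0.67 and 0.64), and Pcdh17 and Inpp5j for Wif1 (0.88 and 0.87). Of these 8 genes, Rnf43 had the highest values and Znrf3 the lowest. The means of the time points were not removed here, so a change with time, called for 62.6% of all genes, enters these values.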

How the data were processed

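RNA was measured in 24 libraries of OC explants, 3 for each of 8 groups. The authors mapped reads (single reads of stranded total RNA libraries) with RNA-STAR to build mm10, per the submitters' processing notes, and deposited raw counts of reads starting within RefSeq exons (qCount of QuasR), with a gene length column in base pairs. Strand use and multiply mapping reads are not given in the sources used here. Symbols were matched for 24374 of 24454 rows. Replicates of each group differed by more than sampling noise (chi-square per degree of freedom 10.2 to 77.8), and none was counted as a repeat deposit.

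From the deposited counts, models were fitted with edgeR 4.0.16 under R 4.3.3 (TMM factors 0.961 to 1.04, filterByExpr, 16317 genes kept). One mean per group was fitted to all 24 libraries (common biological coefficient of variation 0.225) and tested by quasi-likelihood F-tests, with Benjamini-Hochberg adjustment over all tested genes and a threshold of 0.05. Log2 fold changes are as edgeR gives them by default, their SE was derived from the F statistic, correlations used log2 CPM with a prior count of 2, and CPM and RPKM were computed from TMM-scaled counts and the deposited lengths. Alternatives were DESeq2 1.42.0 (test and size factors), no filter, at least 10 counts in every library, the 12 libraries of a time point, a replicate block, each library left out and, added after the data were seen, removal of a GC trend. Figures were drawn in Python 3.11. In simulated data, 98.6% of 69 genes changed by 1 on the log2 scale were recovered in the averaged time comparison (15979 genes), and 77.4% of 53 for pioglitazone at 6 h (15974 genes), where 20.6% of 68 genes changed by 0.5 were. Every gene had the same dispersion there, few genes were changed and replicate numbers had no effect, so these shares need not hold for the data.

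The genes and pathway lists were chosen with earlier results of these data known. Named were the 9 genes, up to 4 list genes per direction with the lowest p in the time and pioglitazone comparisons averaged over treatments, and the 2 genes most correlated with each of the 9. The latter are not reported here for Lgr5.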

Additional observations from a re-analysis of the deposited data

How the results depend on the processing

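For the number of the 9 genes called in 21 comparisons, 146 of 161 values under settings other than leaving out a library were within 1.5 times the main count. For pioglitazone at 6 h, averaged over gentamicin, 2 genes passed, against 4 with the replicate block (Lef1 among those added, with an adjusted p of 0.0407), and 1 (Lgr6) both after GC removal and in the fit of 12 libraries. At 24 h the count of 0 became 2 with the block (Wif1, adjusted p = 0.000745, and Lgr6, 0.0457), 3 with GC removal and the block, 3 in the fit of 12 libraries and 1 by DESeq2. With the block, the count of 0 also became 1 for PIO against CTRL at 6 h (Lgr6) and at 24 h (Wif1) and for PIO + GM against GM at 6 h (Lgr6), with or without GC removal, and 1 for PIO + GM against GM at 24 h with both and 1 for PIO + GM against GM at 6 h by DESeq2. Same-numbered libraries of different groups correlated above 0.1 in 9 of 18 pairs at 6 h and 15 of 18 at 24 h. For pairs of other numbers this was 13 and 10 of 36. The mean r was 0.11 at 6 h and 0.38 at 24 h for the same number, against -0.05 and -0.18. At each time point, 8 of 12 libraries correlated best with their own number. The numbers thus follow part of the spread, more at 24 h. The labels do not say what they stand for, and the block was kept as an alternative only. With 1 library left out, the counts ranged from 1 to 3 for pioglitazone at 6 h, 0 to 1 at 24 h, 0 to 1 for PIO + GM against GM at 6 h, 3 to 5 for time in GM, 3 to 4 in CTRL and in PIO + GM, 2 to 4 in PIO and 6 to 7 averaged, and stayed at 0 elsewhere. With GC removal and the block, Lgr5 passed over time (0.0068) and Sp5 in GM did not (0.0642), and Lgr6 over time in PIO passed with the block (0.0450) and with both (0.00961). Over all genes, 2625 were called for pioglitazone at 6 h against 4403 with the block, 1771 without a filter, 1729 after GC removal and 143 in the fit of 12 libraries, and 456 at 24 h against 1191, 279, 1057 and 1373, with 970 by DESeq2. The causes were not tested. No direction reversed among the single-gene results recomputed under these settings, which were the 9 genes over time averaged and otherwise the genes with an unadjusted p under 0.05. On the CPM in place of the RPKM scale, 3 of 9 genes kept their rank of level. Sp5 has no value with at least 10 counts in every library. In simulated counts, with the simpler settings given above, 20.6% of genes changed by 0.5 on the log2 scale were recovered for pioglitazone at 6 h.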

Other observations

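Of the 3 R-spondin genes tested, which encode ligands of Lgr4, Lgr5 and Lgr6, 2 rose with time, where 62.6% of all genes changed. They were singled out after their values were seen, as the partners of the receptors described above. Rspo2 rose by 2.22 on the log2 scale from 6 to 24 h (SE 0.23, adjusted p = 1.42e-07 by edgeR) and Rspo1 by 1.05 (SE 0.22, adjusted p = 0.000438), whereas Rspo3 was at -0.12 (SE 0.32, adjusted p = 0.745). Rspo2 had 2.88 to 14.7 CPM at 6 h and 16.3 to 36.8 CPM at 24 h, without overlap, and Rspo1 had 0.254 to 0.963 and 0.578 to 2.40 CPM, which overlapped. The lowest level of Rspo1 lies within the 0.193 to 0.416 CPM that 3 counts correspond to, so its changes rest on few counts. The receptor gene Lgr4 fell by 0.19 (SE 0.08, adjusted p = 0.0429). With pioglitazone, the R-spondin gene with the lowest p-value was Rspo1 at 24 h, with a log2 fold change of -0.91 (SE 0.29, adjusted p = 0.0955).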
